A study of Rattus norvegicus with 6 samples.

Results

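The genes described here encode collagen chains, the enzymes and chaperones that process collagen, integrins, metalloproteases with their relatives and inhibitor, and other matrix glycoproteins. A gene was a member if its symbol began with Col and a digit, Lama, Lamb, Lamc, Itga, Itgb, Adam, Mmp, Timp, Lox, Fbn, Fbln, Plod or P4ha, or was Fn1, Sparc, Tnc, Vcan, Thbs2 or Serpinh1. Symbols could be read only for genes among the 1517 with the smallest p-values in the comparison of TE-RMS with planar astrocytes, so the members were chosen by that contrast. Of 23940 genes in the count table, 35 were members: 13 collagen chains, 6 genes of collagen processing and crosslinking, 4 integrins, 9 metalloproteases, relatives and inhibitor, and 3 other glycoproteins. Differences between TE-RMS and planar libraries are therefore given as descriptions, with no p-value for any member, and where a member is said to pass the fit across all genes this describes the fit and is no evidence. No laminin, fibrillin or P4ha gene, and none of Fn1, Sparc, Vcan, Itga2 and Col10a1, was paired with a symbol, and these are not analysed here. Statements on collagens, integrins or other families cover only the genes that could be read.

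Cortical astrocytes of Sprague-Dawley rat pups, taken on postnatal day 0 to 1, were cultured to passage 4 and then either plated on collagen (planar) or seeded into collagen-coated hydrogel microchannels, where they bundle into a tissue-engineered rostral migratory stream (TE-RMS). Each of 3 runs, called July, September and October after their labels, gave 1 library of each condition, both at 4 days in vitro. Every run used different animals, so run, animals and date cannot be told apart. Only tightly bundled TE-RMSs were taken, and they were stored in RNAlater, whereas planar wells were extracted fresh. TE-RMSs were pooled over sequential fabrication days, each with its own flask, whereas planar wells were plated on the last of these days. Culture format, selection, preservation, pooling and fabrication day therefore cannot be told apart. Both conditions received collagen as protein, and the values below are transcript levels of the rat cells, which carried no transgene. Values of the 3 runs always follow in the sequence July, September and October. The planar libraries totalled 70682593, 70478784 and 56483332 counts, and those of TE-RMS 54601354, 77277336 and 64537115.

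Levels are given as CPM, counts scaled to a common library size after TMM normalization, and 3 counts, the floor of detection used here, correspond to 0.0415 to 0.0529 CPM. The lowest count of any member in any library was 19, for Adamts2. Gene lengths were not at hand, so CPM are compared between libraries and not between genes. The exception is to name the gene with the most counts of a list or group. Of 17 astrocyte markers, 8 had a symbol paired with an identifier, and all 8 were detected in every library. Of these, 7 were higher and Fgfr3 was lower in TE-RMS libraries in all 3 runs. Their summed level was 2555, 1849 and 3083 CPM in planar and 8803, 5402 and 9795 CPM in TE-RMS libraries, most of it from Apoe. Gfap and Aqp4 were not among the paired genes and are not analysed here.

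Collagens are built from chains that coil into a triple helix in the endoplasmic reticulum, with the chaperone HSP47 (Serpinh1) and lysyl hydroxylases (Plod) at work before secretion, and N-terminal propeptides are cut by ADAMTS proteases outside the cell. Lysyl oxidase family enzymes then crosslink the fibres, integrins tie the cell to them, and matrix metalloproteases, held in check by TIMPs, cut matrix proteins. In the healthy brain interstitial fibrillar collagen is sparse and found mostly around vessels and in the meninges, while cultured astrocytes secrete matrix of their own.

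The Col4a1 and Col4a2 genes are a known pair read outward from a shared promoter, and their promoter is shown because both chains are members and stood lower in TE-RMS libraries. In RefSeq's GRCr8 windows, the starts of both genes lay 77 bases apart, and the stretch between them is printed on the strand of Col4a1. For Col1a2, which encodes a chain of type I collagen, the stretch from 250 to 151 bases before the start annotated in RefSeq is printed on the gene's own strand, and that start may lie downstream of the one in use. Capitals mark letters of a searched motif on either strand: in Col4a1/Col4a2 the reverse complement of GGGCGG, and in Col1a2 the reverse complement of CCAAT followed by TATAAA.
Col4a1/Col4a2, chr16:84885521-84885596 (GRCr8, + strand): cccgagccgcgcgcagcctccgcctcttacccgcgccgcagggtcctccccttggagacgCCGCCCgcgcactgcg
Col1a2, chr4:33518307-33518406 (GRCr8, + strand): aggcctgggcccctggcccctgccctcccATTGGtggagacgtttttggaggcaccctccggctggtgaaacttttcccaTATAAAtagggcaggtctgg

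RefSeq windows of 300 bases, from 250 before to 50 after the annotated start, were matched for 25 of the 35 members by symbol. GGGCGG, the core of the GC box, was in 17 of the 25 windows (68%) and in 33.1% of all 33469 windows. CCAAT was in 5 (20%, against 37.5% of all windows), and TATAAA in 4 (16%, against 14.2%). GGAATG, the core read by TEAD factors, was in 3 windows (12%, against 14.2%), those of Fbln5, Loxl1 and Loxl3. The SMAD element CAGACA was in 4 (16%, against 21.1%), and the AP-1 element TGANTCA was in 2 (8%, against 7.33%), those of Col6a1 and Mmp3. No member window held the CArG box read by SRF, which was in 1.64% of all windows. All 7 motifs were searched on both strands, none contains another, a match of letters is not a measured binding site, the windows of Col4a1 and Col4a2 overlap and so are not separate, and all windows cover genes of every kind, expressed or not.

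The matrix genes stood mostly lower in TE-RMS astrocytes. Of the 35 members, 30 were lower in TE-RMS than in planar libraries in all 3 runs and 5 were higher in all 3. Among the 16331 genes tested, 26.8% were lower and 22.5% higher in all 3 runs. In the fit across all genes (edgeR, run as a block, adjusted p under 0.05), the 30 and the 5 all passed, beside 9.28% of all genes that passed as lower and 9.36% as higher. Since the members were chosen by this contrast, nothing is read from these counts. The median log2 fold change of the members was -1.56, against -0.12 over all genes tested, and the members ranged from -3.06 (Col8a2) to 2.34 (Mmp3). For 25 members every TE-RMS library was below every planar library (16.1% of all genes), for 4 every TE-RMS library was above (13.2% of all genes), and for 6 the groups overlapped. The choice of members by this contrast favoured large fold changes and such separation. The last member in the order of p-values, at place 1405 of 1517, was Col5a2 with a log2 fold change of -0.91, preceded by Adam10 with 0.95, and genes just beyond the list carry no symbol here.

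**Figure D1:**
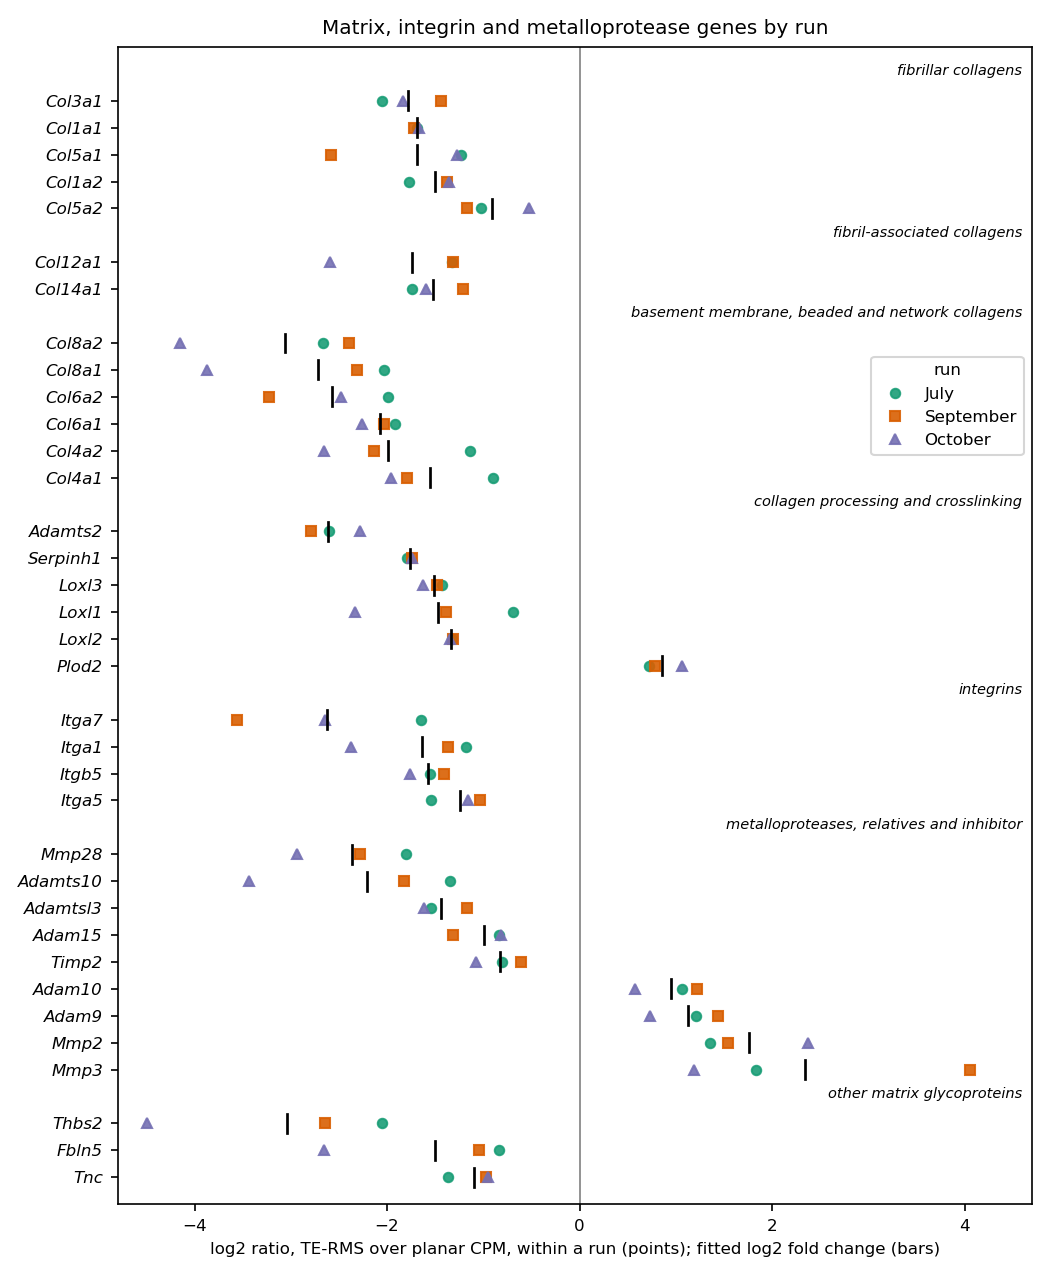
Log2 ratio of TE-RMS over planar CPM within each run (points, by run) and fitted log2 fold change (bars) for the 35 genes, by role. The 30 lower genes lie left of 0 in every run, while Plod2, Adam9, Adam10, Mmp2 and Mmp3 lie right of it, with Mmp3 reaching 4.06 in September.

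Summed over the 35 genes, the level was 4049, 3311 and 4575 CPM in planar libraries and 1759, 1568 and 1605 CPM in TE-RMS libraries. The TE-RMS sum was thus 43.4%, 47.4% and 35.1% of its planar partner. The 13 collagen chains together were at 29.7%, 28.6% and 26.9%, close to each other in the 3 runs. Basement membrane, beaded and network collagens were at 24.6%, 18.3% and 10% of planar, and the metalloprotease group at 66.4%, 75.2% and 52.8%. The last sum came mostly from the inhibitor Timp2, which also had the most counts of all 35 genes in each library. In bulk RNA, fewer cells of a type and less RNA per cell cannot be told apart.

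**Figure D2:**
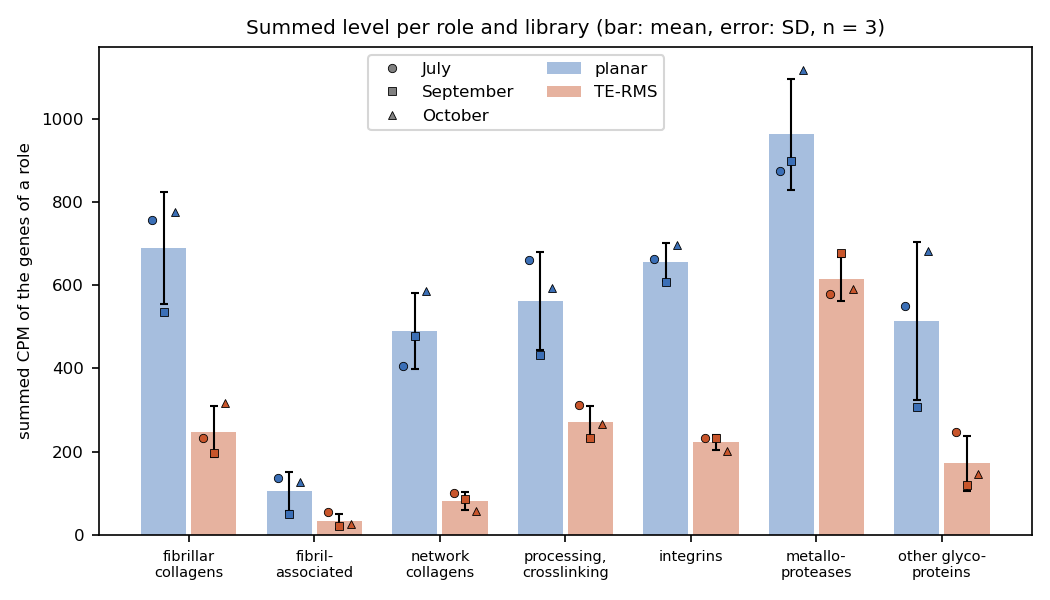
Summed CPM of the genes of each role in each library, with bars for the mean and error bars for the SD of 3 libraries per condition; points are the runs. The TE-RMS points lie below the planar points for all roles except fibril-associated collagens, where the July TE-RMS library reached the September planar library.

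Type I collagen, the main fibril-forming collagen of skin, bone and tendon, is made of Col1a1 and Col1a2 chains. Col1a1 (mRatBN7.2 chr10:79883622-79900624) was at 112.1, 93.6 and 184.5 CPM in planar and 34.7, 28.4 and 58 CPM in TE-RMS libraries. The fitted log2 fold change was -1.69 ± 0.16, with the standard error after the sign as in all values of this kind. Its within-run log2 ratios of -1.69, -1.72 and -1.67 were nearly equal although its level differed between runs. Col1a2 (chr4:32563381-32598867) was at 321.3, 243.8 and 402.3 CPM against 94.1, 94.1 and 157.6 CPM (-1.50 ± 0.17). Both chains were highest in October in both conditions, and the groups did not overlap for either. The log2 ratios of the chains differed by a mean of -0.20 (SD 0.24, n = 3 runs), less than their spread between runs.

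Col3a1, the single chain of type III collagen, was at 212.3, 57.6 and 47.6 CPM in planar and 51.0, 21.2 and 13.3 CPM in TE-RMS libraries (log2 fold change -1.78 ± 0.18). July was high in both conditions, and its TE-RMS library overlapped the planar range. Col5a1 and Col5a2 encode chains of type V collagen, which sets fibril diameter. Col5a1 was at 37.7, 35.1 and 37.0 CPM against 16, 5.84 and 15.3 CPM, and Col5a2 at 73.8, 105.4 and 104.5 CPM against 36.4, 46.9 and 72.3 CPM. Col5a1 (-1.69 ± 0.28) was lowest in the September TE-RMS library and Col5a2 (-0.91 ± 0.18) was closest to planar in October. The difference of their ratios was -0.79 (SD 0.60), negative in all 3 runs. Col3a1 and Col5a2 are neighbours on chromosome 9, 38188 bases apart and on opposite strands.

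Types XII and XIV collagen decorate the surface of fibrils. Col12a1 was at 130, 44.8 and 97.4 CPM in planar and 52.0, 17.9 and 16.1 CPM in TE-RMS libraries (-1.74 ± 0.25). Col14a1 was at 7.35, 6.30 and 29.1 CPM against 2.17, 2.71 and 9.58 CPM (-1.53 ± 0.31). For both genes the highest TE-RMS library was above the lowest planar library, and the difference appeared within runs. Without October, Col14a1 no longer passed the fit across all genes (log2 fold change -1.45).

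The chains outside fibrils had a median log2 fold change of -2.32 over 6 genes, and in none of them did the groups overlap. Type IV collagen is the network of basement membranes. Col4a1 (mRatBN7.2 chr16:78183533-78294412) was at 20.5, 17.4 and 20.6 CPM in planar and 11.0, 5.005 and 5.26 CPM in TE-RMS libraries (-1.56 ± 0.30). Col4a2 (chr16:78047602-78183839) was at 11.5, 13.5 and 14.0 CPM against 5.24, 3.04 and 2.19 CPM (-1.99 ± 0.38). The pair behind the shared promoter thus had the same direction in every run, with Col4a2 lower relative to planar than Col4a1 each time, by a mean log2 difference of 0.43 (SD 0.24). In the mRatBN7.2 annotation the genes overlap by 307 bases on opposite strands, which differs from the separate starts in RefSeq's GRCr8 windows. The kit kept no strand, so reads in that overlap could not be told apart.

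Type VI collagen forms beaded filaments around cells. Col6a1 was at 28.4, 62.6 and 42 CPM in planar and 7.50, 15.3 and 8.74 CPM in TE-RMS libraries (-2.07 ± 0.21). Col6a2 was at 58.5, 124.9 and 92.9 CPM against 14.6, 13.3 and 16.7 CPM (-2.57 ± 0.23). Planar levels of both were highest in September, while TE-RMS levels of Col6a2 stayed within 13.3 to 16.7 CPM. These genes are neighbours on chromosome 20, 97169 bases apart on the same strand. Type VIII collagen is a short-chain network collagen of vessel walls and the corneal endothelium. Col8a1 was at 185.4, 144.9 and 197.3 CPM against 45.4, 29.2 and 13.5 CPM (-2.72 ± 0.30), and Col8a2 at 101.5, 113.8 and 219.4 CPM against 16.01, 21.6 and 12.3 CPM. The log2 fold change of Col8a2 was -3.06 ± 0.30, or 8.34-fold lower. Both chains had their widest gap in October.

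Among genes of collagen processing, 5 were lower and 1 higher. Serpinh1, the collagen chaperone HSP47, was at 401.4, 172.1 and 308 CPM in planar and 116.1, 51.4 and 92.4 CPM in TE-RMS libraries (-1.76 ± 0.16). Its within-run ratios lay between -1.79 and -1.74. Adamts2, the procollagen N-proteinase, was at 3.16, 2.00 and 12.4 CPM against 0.494, 0.264 and 2.54 CPM (-2.62 ± 0.55). October was its highest run in both conditions, so that the TE-RMS library of October exceeded the planar library of September. Loxl2, a crosslinking lysyl oxidase, was at 63.5, 36.1 and 74.0 CPM against 25.3, 14.4 and 29.0 CPM (-1.33 ± 0.18). Its relatives Loxl1 and Loxl3 ranged from 53.4 to 73.7 and from 56.9 to 106.3 CPM in planar, and from 11.2 to 45.6 and from 21.2 to 38.2 CPM in TE-RMS libraries.

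Plod2, the lysyl hydroxylase that modifies collagen telopeptides and so directs the kind of crosslink, went the other way. It was at 62.7, 62.6 and 48.6 CPM in planar and 103.6, 108.2 and 101.4 CPM in TE-RMS libraries (0.86 ± 0.16). The TE-RMS libraries were close to each other and all above the planar ones. Plod2 was the only member of its group higher in TE-RMS libraries in any run.

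The 4 integrins that could be read were lower, with no overlap between groups. Itga1, a collagen-binding alpha subunit, was at 73.4, 181.4 and 99.9 CPM in planar and 32.4, 70.2 and 19.3 CPM in TE-RMS libraries (-1.64 ± 0.23). Itga5, the fibronectin receptor subunit, was at 129.6, 88.5 and 52.6 CPM against 44.6, 43.3 and 23.6 CPM (-1.24 ± 0.18). Itga7, a laminin-binding subunit, was at 20.6, 25.0 and 19.6 CPM against 6.54, 2.099 and 3.10 CPM. Its log2 fold change of -2.62 ± 0.37 was the most negative of the 4 integrins. Itgb5, the beta subunit that pairs with alpha v and binds vitronectin, was at 439.5, 313 and 524 CPM against 149.6, 118 and 154.7 CPM (-1.57 ± 0.17).

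The metalloprotease group was divided, with 5 genes lower and 4 higher in TE-RMS libraries in all 3 runs. Adam9 and Adam10, membrane-bound sheddases, were both higher. Adam9 was at 20.3, 21.9 and 27.3 CPM in planar and 46.9, 59.3 and 45.4 CPM in TE-RMS libraries (1.13 ± 0.20). Adam10, the alpha-secretase that also cleaves Notch and N-cadherin, was at 31.6, 25.9 and 34.6 CPM against 66.0, 60.4 and 51.6 CPM (0.95 ± 0.19). For each of them all TE-RMS libraries were above all planar libraries. Adam15, another membrane-bound member of the family, was lower, at 108.3, 73.8 and 88.7 CPM against 60.6, 29.6 and 50.4 CPM (-0.99 ± 0.18).

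Mmp3, stromelysin-1, was at 2.48, 1.91 and 2.71 CPM in planar and 8.92, 32.3 and 6.24 CPM in TE-RMS libraries (2.34 ± 0.51). September stood apart, and without that run the log2 fold change was 1.52 and Mmp3 no longer passed the fit across all genes, while without October it was 3.00. Mmp2, gelatinase A, was at 3.41, 5.64 and 0.926 CPM against 8.77, 16.5 and 4.92 CPM (1.76 ± 0.39). Its groups overlapped, since October was low and September high in both conditions, and without September it did not pass either (1.88). The TE-RMS library of September was also the highest for Cd68, a marker of microglia and macrophages, at 85.4 CPM, and for the neuronal marker Snap25, at 60.8 CPM. Cd68 was at 8.69 and 3.75 CPM in the other TE-RMS libraries and at 1.301, 15.6 and 0.778 CPM in planar ones. Snap25 was at 0.458 and 3.50 CPM in those TE-RMS libraries and at 0.0148, 3.92 and 0.0496 CPM in planar ones. Its planar values of July and October rest on 1 and 3 counts, at or under the floor of 3 counts. Their part in the values of Mmp2 and Mmp3 was not tested, and of 12 microglia and 13 neuron markers only 2 each had a paired symbol (Tmem119 and Cd68, Snap25 and Map2), none of them at 0 counts in any library. Tmem119, a microglia marker, went the other way from Cd68, at 24.6, 23.2 and 26.5 CPM in planar and 5.26, 5.60 and 9.14 CPM in TE-RMS libraries. Summed, the microglia pair was at 25.9, 38.8 and 27.2 CPM in planar and 13.9, 91.0 and 12.9 CPM in TE-RMS libraries, where Cd68 led in July and September of TE-RMS and Tmem119 in the other libraries. The neuron pair was at 12.7, 7.63 and 5.94 CPM against 34.9, 91.3 and 18.1 CPM, where Snap25 led in both September libraries and Map2 in the others.

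Mmp28, epilysin, was lower, at 11.2, 5.18 and 6.005 CPM in planar and 3.17, 1.04 and 0.756 CPM in TE-RMS libraries (-2.36 ± 0.48). Timp2, an inhibitor of metalloproteases that also takes part in activating pro-MMP2, was at 636.6, 661.6 and 823.8 CPM against 364.6, 432.4 and 391.3 CPM. Its log2 fold change was -0.83 ± 0.17, and it did not pass without October (-0.67). Adamtsl3, which resembles ADAMTS proteases without a protease domain, was at 53.1, 96.3 and 115.5 CPM against 18.2, 42.7 and 37.8 CPM (-1.44 ± 0.18). Adamts10, linked to microfibrils, ranged from 6.55 to 16.9 CPM in planar and from 1.53 to 2.63 CPM in TE-RMS libraries (-2.21 ± 0.48, and -1.57 without October). Within this group, Mmp2 and Mmp3 were thus higher and the inhibitor Timp2 lower in TE-RMS than in planar libraries in each run.

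**Figure D3:**
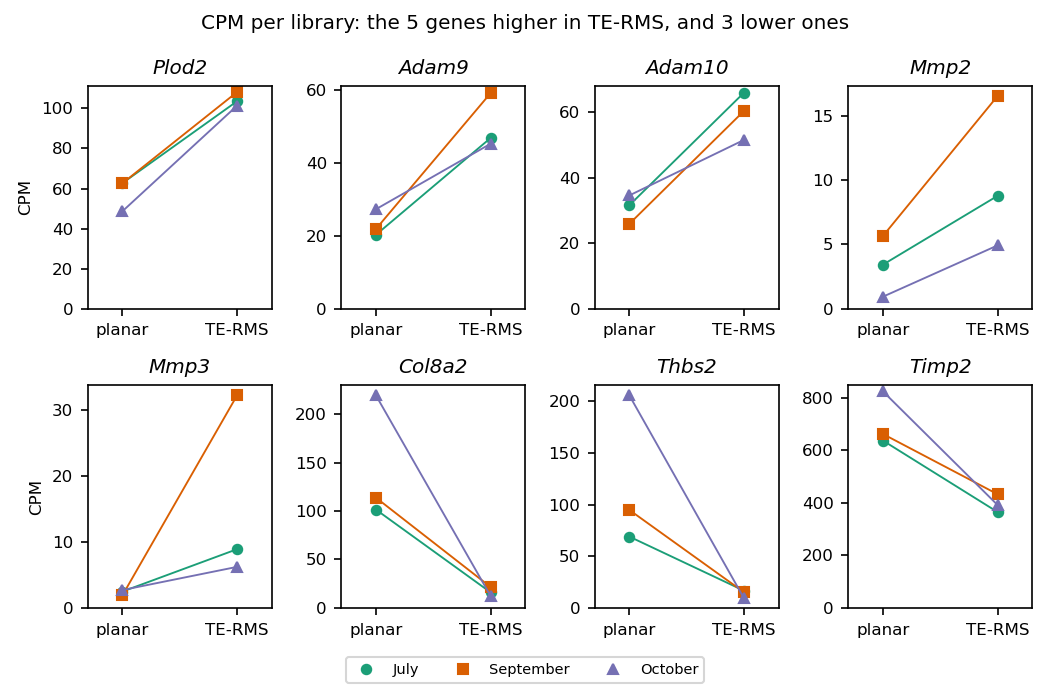
CPM in each library (points, linked within a run) for the 5 genes that were higher in TE-RMS and for Col8a2, Thbs2 and Timp2, which were lower; each panel starts at 0 CPM. The September TE-RMS library carries most of the Mmp3 difference, at 32.3 CPM, while the 3 TE-RMS libraries of Plod2 lie together near 101.4 to 108.2 CPM.

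Among the other glycoproteins, Thbs2, a matricellular protein that astrocytes secrete and that promotes synapse formation, was at 68.98, 94.8 and 205.6 CPM in planar and 16.6, 15.1 and 9.12 CPM in TE-RMS libraries. Its log2 fold change was -3.04 ± 0.37, and -2.32 without October, whose ratio was -4.49. Tnc, tenascin-C of developing and injured tissue, was at 228.1, 105.5 and 174.4 CPM against 88.8, 53.8 and 90.3 CPM (-1.09 ± 0.17). Fbln5, an elastic fibre assembly protein, was at 253.9, 107.4 and 301.1 CPM against 142.4, 52.1 and 47.6 CPM (-1.50 ± 0.29, and -0.90 without October). The July TE-RMS library of Fbln5 lay above the planar library of September.

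Differences between runs were tested in the same edgeR fit with a joint test of the run terms, a measure other than the one that chose the members but not free of that choice. Of the 35 members, 10 passed at an adjusted p under 0.05, while 3.21% of all genes tested did. At an unadjusted p under 0.05 these were 21 of 35 members and 15.6% of all genes. The listed genes were ranked on p-values of a fit with run as a block, which favours genes with a small residual spread, and the run test divides by the same spread, so the members and all genes do not start equal. The count was also sensitive to the processing: with at least 10 counts demanded in 3 libraries, 3 members passed, among 224 of 13763 genes tested (1.63%), and with DESeq2 17 members did, among 1245 genes called (9.02% of those to which DESeq2 gave an adjusted p). Leaving out July gave 10 members (4.72% of all genes), leaving out September 6 (3.49%) and leaving out October 7 (2.34%).

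Col3a1, Col14a1 and Serpinh1 passed under all 3 of these treatments of the full set of libraries. Col3a1 (adjusted p = 0.000514) was high in July, in planar and TE-RMS libraries alike. Col14a1 (0.0079) was high in October, and Serpinh1 (0.0114) was high in July and low in September. Itga1 (0.0195) was high in September, Itga5 (0.0298) low in October, and Adamtsl3 (0.0212) low in July. Col1a1 (0.0235), Adamts2 (0.044) and Loxl2 (0.0461) were highest in October and lowest in September, and Col12a1 (0.0238) was highest in July. The runs did not share an order across these genes. Each of the 10 calls was lost when some run was left out, in fits with 2 runs. Without July the adjusted p was 0.362 for Col3a1, 0.38 for Col12a1 and 0.958 for Adamtsl3. Without September it was 0.783 for Serpinh1, 0.947 for Itga1 and 0.917 for Loxl2, and without October 0.972 for Col14a1, 0.588 for Itga5, 0.592 for Col1a1 and 0.7 for Adamts2. Col1a1 (0.106) and Adamts2 (0.0816) were also lost without September, and Loxl2 (0.103) without October.

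**Figure D4:**
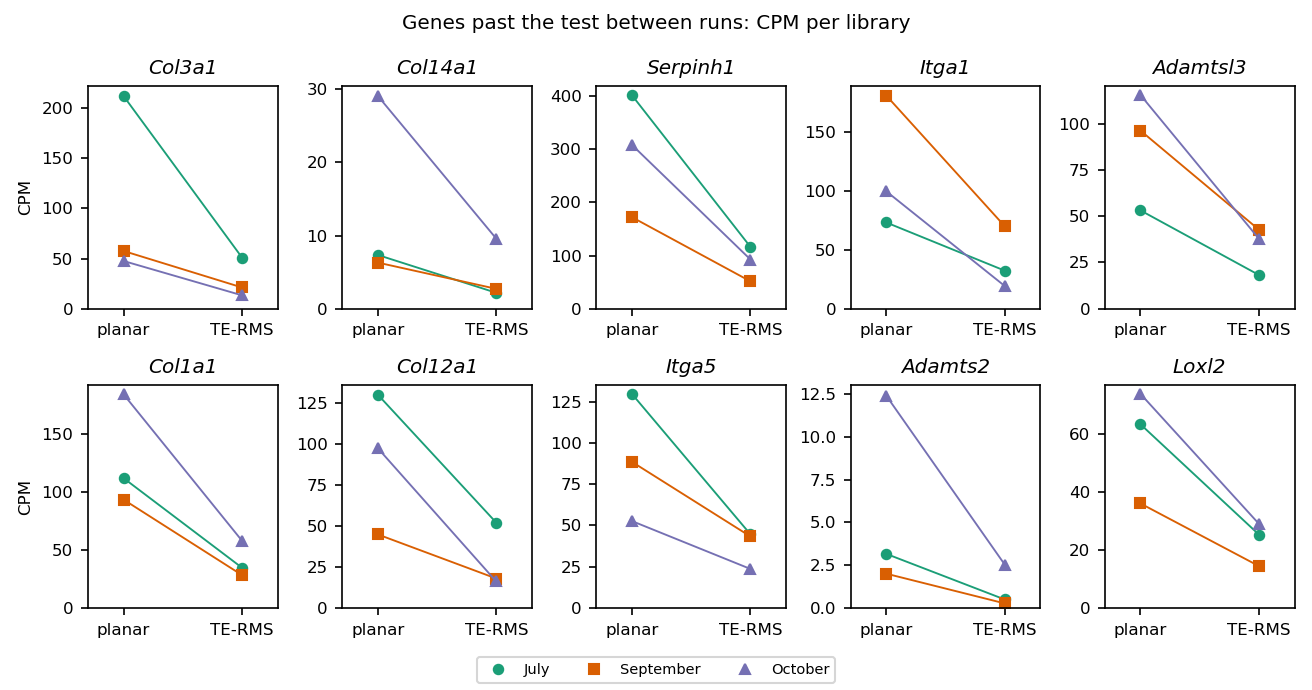
CPM in each library (points, linked within a run) for the 10 genes that passed the test between runs, in order of adjusted p; each panel starts at 0 CPM. July is the top run for Col3a1, Serpinh1, Col12a1 and Itga5, and October for Col14a1, Col1a1, Adamts2 and Loxl2.

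Within-run ratios also differed in size from run to run. With 1 library of each condition in a run, a change with the run cannot be told apart from spread between libraries. The most negative ratio of the 30 lower members fell in October for 17 (56.7%), in September for 7 and in July for 6. Of the 4375 genes lower in all 3 runs, October was the most negative for 44.7%. Genes with October ratios far from the others included Thbs2 (-4.49, against -2.05 and -2.65), Col8a2 (-4.16), Col8a1 (-3.87), Adamts10 (-3.44) and Fbln5 (-2.66). Col12a1 (-2.59, against -1.32 and -1.32) and Itga1 (-2.37, against -1.18 and -1.37) also stood apart in October. Col1a1, Serpinh1 and Loxl2 instead had ratios that hardly moved between runs.

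Paired markers of other cell types that produce collagen were also lower in TE-RMS libraries. Of 17 fibroblast markers, 4 had a paired symbol (Thy1, Twist1, Prrx2 and S100a4), and all 4 were lower in TE-RMS libraries. Their sum was 1235, 1653 and 902.5 CPM in planar and 504.8, 675.7 and 483.7 CPM in TE-RMS libraries, with S100a4 the most abundant. The 13 collagen chains summed to 1300, 1064 and 1488 CPM in planar and 386.1, 304.4 and 400.9 CPM in TE-RMS libraries. In both conditions the fibroblast marker sum was highest in September and lowest in October, and the collagen sum the reverse. Of 13 mural and smooth muscle markers, 5 were paired (Acta2, Tagln, Cnn1, Cspg4 and Lmod1), and all 5 were lower. Their sum was 6492, 754.5 and 1688 CPM against 421.8, 63.8 and 76.7 CPM, with Tagln the most abundant. The authors class Cnn1 and Lmod1 with genes of the actin cytoskeleton and describe Lmod1 as also present in astrocytes and neurons. Lmod1 at least is thus not exclusive to mural cells. Tagln alone was at 5917, 614.8 and 1316 CPM in planar and 391.2, 47.4 and 58.3 CPM in TE-RMS libraries, so that July was its highest run in both conditions, as for Col3a1. None of these 9 markers was at 0 counts in a library, the lowest being 3 counts of Prrx2 in the July and of Acta2 in the October TE-RMS library. Dcn, Lum and Pdgfra were not paired and are not analysed here. Of 9 endothelial markers 0 were paired. The part of these cells in the matrix values was not tested. All paired markers come from the same list of smallest p-values, so their direction was free but their difference was not.

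Further matrix genes were read from 6 lists outside the member rule. Only genes among those with the smallest p-values carry a symbol, so each paired gene passed the fit and the counts show directions only. Of 14 receptors for collagen and matrix, 7 were paired, 6 lower and 1 higher. The lower ones included Sdc3, a cell surface heparan sulfate proteoglycan, with -4.02 (10.6, 8.48 and 18.9 CPM against 0.670, 0.334 and 1.69 CPM), and Bcam, a laminin receptor, with -2.51. Cd44, the hyaluronan receptor, was higher with 0.84. Of 25 adaptors of integrin adhesions, 12 were paired, 11 lower and 1 higher, with Tns1 (tensin, which ties integrins to actin) at -2.99, Actn4 (an actin crosslinker) at -2.06 and Lims1 (PINCH, partner of integrin-linked kinase) at 1.29.

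**Figure D5:**
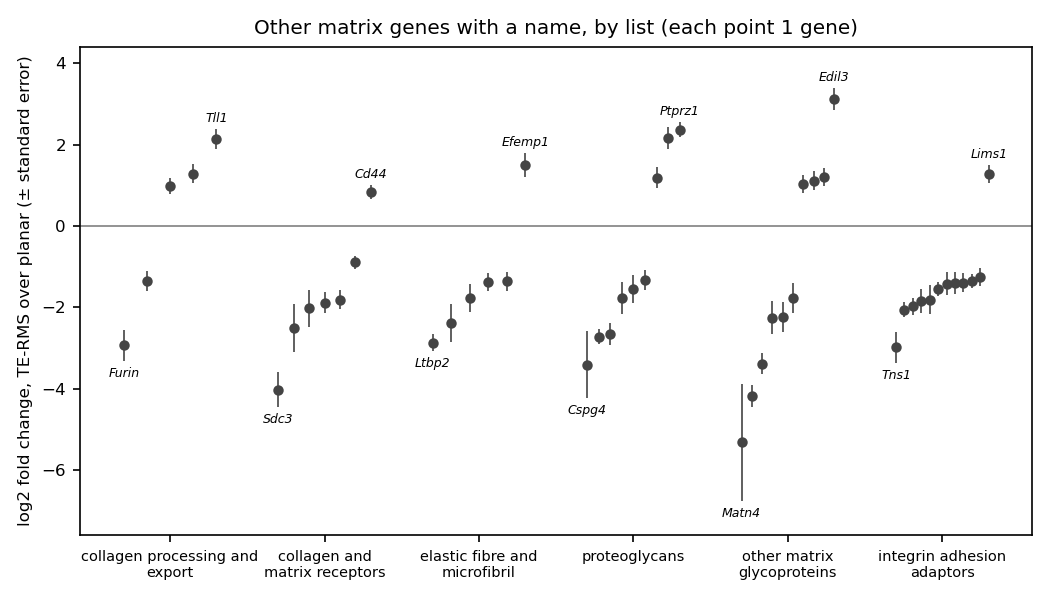
Log2 fold change of TE-RMS over planar (± standard error of the edgeR fit) for genes of 6 matrix lists outside the member rule, each point a gene, with the extreme gene of each direction named. All come from the list of smallest p-values, and most of the adhesion adaptors and receptors lie below 0.

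Of 13 elastic fibre and microfibril genes, 6 were paired, 5 lower and 1 higher. Ltbp2, a microfibril protein, had -2.87, Eln, elastin, -2.39, and Efemp1, fibulin-3, 1.49. Of 29 genes of collagen processing and export, 5 were paired, 2 lower and 3 higher. Furin, a proprotein convertase, had -2.94 and Pxdn, which crosslinks type IV collagen, -1.35. The higher ones included Tll1, a procollagen C-proteinase (2.13), and Sec24d, a coat protein of the vesicles that carry procollagen (1.29).

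Of 29 proteoglycans, 9 were paired, 6 lower and 3 higher. Cspg4 (NG2) had -3.41 and Gpc1, a glypican, -2.72, while Ptprz1, whose secreted form is phosphacan, had 2.36 and Cspg5, neuroglycan C, 2.16. Of 31 other matrix glycoproteins, 10 were paired, 6 lower and 4 higher. Thbs1, the relative of Thbs2, was at 1133, 903.3 and 2566 CPM in planar and 94.1, 58.4 and 78.3 CPM in TE-RMS libraries (-4.19 ± 0.27). Matn4, a matrilin, was at 6, 39 and 296 counts in planar libraries and at 0, 2 and 4 counts in TE-RMS libraries, so its size of change rests on few counts. Edil3 (3.12) and Sparcl1, hevin, which astrocytes secrete at synapses (1.20), were higher.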

How the data were processed

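RNA of 3 TE-RMS and 3 planar astrocyte libraries was sequenced with a non-stranded kit. The authors used fastp for trimming and Salmon for quantification (Ensembl transcripts, mRatBN7.2), and deposited estimated counts per gene, already whole numbers. Salmon shares out reads of similar transcripts by probability.

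Members, roles and lists were chosen with earlier results of these data known. Symbols and gene positions come from the annotation columns of the supplementary gene list, read to its 1517 smallest p-values (1503 with a symbol); its fold changes and p-values were not used further. All members are named, with each library's value where the group, size, direction or run difference called for it. Pathway genes named are the 2 largest in each direction of a list.

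The 16331 genes whose counts summed to 10 or more were scaled by TMM and fitted with edgeR 4.0.16 (quasi-likelihood, run as a block, Benjamini-Hochberg at 0.05) in R 4.3.3. The prior count was 0.125 for fold changes and 2 for within-run ratios. Standard errors are the log2 fold change over the square root of F. The fit was tested on simulated data, where false calls exceeded the nominal share, so calls near the threshold are uncertain. Same-run libraries deviated together from their group means (r 0.271, 0.240 and 0.182, against -0.155 to -0.0657 between runs), and the methods pair them. Libraries are separate preparations, and p-values measure their spread. The floor of 3 counts covers counting error only. Alternatives were DESeq2 1.42.0, limma 3.58.1, other scalings and filters, thinned counts, no block and each run left out.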

Additional observations from a re-analysis of the deposited data

How the results depend on the processing

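The 30 lower and 5 higher members passed under every other scaling, filter and tool and with thinned counts, which their selection on the same contrast and libraries favoured. Without the run as a replicate block, 20 lower and 4 higher members passed, and calls over all genes went from 3044 to 1441; among the members lost were Col3a1, Col12a1, Col14a1, Itga1 and Fbln5. Leaving out a run gave 28 to 30 lower and 3 to 5 higher members, with the 3 from leaving out September (Mmp2 and Mmp3 lost) and the 28 from leaving out October (Timp2 and Col14a1 lost). The median log2 fold change of the members stayed between -1.70 and -1.42. The number of members that differ between runs was 10, moved to 3 with at least 10 counts in 3 libraries and to 17 with DESeq2, and was 6 to 10 with a run left out, the 6 without September; the cause was not tested. No fold change of a member changed sign under any alternative run. All members were above 3 counts in each library, which their selection favoured. Whether depth limited which genes became members therefore cannot be read from this.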
